A study of Mus musculus with 2 samples.

Results

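Resting early B-lineage cells are B-cell precursors with few transcripts of the division genes Mki67 and Top2a. They were chosen from 2 droplet-based single-cell libraries of mouse marrow RNA by raw counts of unique molecular identifiers (UMIs), which count captured transcripts. A barcode counted as a cell when it held at least 2500 UMIs and 500 genes, with at most 10% of UMIs from mitochondrial genes. Such a cell was taken as resting early B-lineage when Vpreb1, Vpreb3, Igll1 and Ebf1 together gave at least 10 UMIs, Mki67 and Top2a together fewer than 3, and Jchain fewer than 5. The rule found 315 cells among 11214, with 50 in the Listeria library and 265 in the naive one.

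The Listeria library was made from marrow of wild-type C57BL/6J mice 6 weeks after a challenge with Listeria monocytogenes, a bacterium that grows inside host cells. The naive library was made from wild-type C57BL/6J mice with no challenge. For both the age is 6 to 8 weeks, and at which point of the study is not said. The submitters describe the cells as haematopoietic stem cells (HSCs), yet the protocols in the labels give only marrow flushing and red cell lysis, with no sort. The file name of the deposited Listeria matrix reads as a knockout and that of the naive matrix as wild type, while the labels give wild type for both. The labels were followed, and a genotype difference between the libraries cannot be told apart from the challenge. With 1 library per group and no count of mice, every comparison below sets 1 library against another, has no replicate check and carries no p-value.

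Early B-cell precursors build the heavy chain of an antibody by cutting and joining gene segments with the recombinase made of Rag1 and Rag2. Dntt, the terminal transferase, adds untemplated nucleotides at the joints. A finished heavy chain pairs with the surrogate light chain, made of Vpreb and Igll1, and signals through Cd79a and Cd79b as the pre-B-cell receptor. Signalling drives a burst of division, after which small resting pre-B cells turn on recombination again to build the light chain. Recombination takes place outside DNA replication, since Rag2 protein is destroyed as cells enter S phase.

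The recombinase genes are neighbours on mouse chromosome 2 (mm10), with Rag1 (ENSMUSG00000061311) at chr2:101638282-101649501 on the minus strand and Rag2 (ENSMUSG00000032864) at chr2:101624718-101632529 on the plus strand. Their promoter windows are shown because Rag1 was the recombination gene with the highest level in resting over dividing cells. Each window holds 250 bases before and 50 after the RefSeq start (GRCm38.p6), read 5′ to 3′ on the gene's own strand, at chr2:101649483-101649782 for Rag1 and chr2:101624462-101624761 for Rag2. Capitals mark matches to CANNTG, the E-box letters bound by factors such as Tcf3, which read the same on both strands.
Rag1: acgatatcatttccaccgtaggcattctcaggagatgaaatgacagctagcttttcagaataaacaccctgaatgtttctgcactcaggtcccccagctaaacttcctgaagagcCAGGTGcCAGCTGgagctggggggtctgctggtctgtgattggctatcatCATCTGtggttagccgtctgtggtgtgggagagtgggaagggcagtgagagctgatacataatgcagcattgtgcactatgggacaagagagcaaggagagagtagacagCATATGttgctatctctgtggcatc
Rag2: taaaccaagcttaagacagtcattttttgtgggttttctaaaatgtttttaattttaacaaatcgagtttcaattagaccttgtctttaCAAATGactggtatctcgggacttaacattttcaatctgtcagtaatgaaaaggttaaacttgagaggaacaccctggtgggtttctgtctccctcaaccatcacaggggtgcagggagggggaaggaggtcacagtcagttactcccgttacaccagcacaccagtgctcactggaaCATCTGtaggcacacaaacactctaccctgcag
The Rag1 window held 4 matches and the Rag2 window 2. Among 32851 RefSeq promoter windows of the same length, 6.49% held at least 4 matches and 39.6% at least 2. A match is a description of these letters and says nothing of binding.

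Resting early B-lineage cells made up 1.03% of kept cells in the Listeria library (50 of 4839, 95% Clopper-Pearson interval 0.768% to 1.36%) and 4.16% in the naive library (265 of 6375, 3.68% to 4.68%). All intervals here cover counting error only. Among early B-lineage cells of either kind, the resting share was 12.9% in the Listeria library (50 of 388, 9.72% to 16.6%) and 19.2% in the naive library (265 of 1382, 17.1% to 21.4%). The remaining 338 Listeria and 1117 naive cells, with 3 or more UMIs of Mki67 and Top2a, are called dividing below. When every cell was first thinned to 2500 UMIs and the division limit lowered to under 2, the resting share of early B-lineage cells was 20.8% in the Listeria and 29.0% in the naive library. The B-lineage gate of 10 UMIs was applied to the thinned counts too, which left 183 Listeria and 716 naive dividing cells. With Mki67 and Top2a both at 0 in unthinned cells, the resting share was 8.51% and 10.5%, in the same order of libraries.

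The resting cells were shallow. Their median depth was 4667 UMIs and 1990.5 genes in the Listeria library and 4873 UMIs and 1994 genes in the naive library. Dividing cells had medians of 10635 and 10503 UMIs. A limit in raw UMIs therefore also selected cells with little RNA, and how much of the difference between resting and dividing cells follows depth was not tested beyond the thinned values given. Summed over cells, the resting set held 284318 UMIs in the Listeria and 1493781 in the naive library, so the Listeria values are the less precise. Levels are given as CPM, the UMIs of a gene among all UMIs of the set scaled to a total of 1000000, with exact Poisson 95% intervals, and are compared between cells, not between genes.

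Cells next to the limits differed in level from those well inside. The 6 Listeria and 14 naive resting cells with a gate sum of 10 to 14 had 222 and 439 CPM of Dntt, and the 4 and 17 cells just below, with a sum of 5 to 9, had 109 and 476 CPM. The median gate sum of all resting cells was 36 in the Listeria and 38 in the naive library. Across the division limit, Rag1 stood at 410 CPM in the 17 Listeria cells with 1 or 2 UMIs of Mki67 and Top2a and at 113 CPM in the 13 cells with 3 or 4. In the naive library these values were 241 CPM in 120 cells and 152 CPM in 89 cells.

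The cells carried the markers of their label. Vpreb1, Igll1, Vpreb3 and Ebf1 were used to choose them and are given as a description. Vpreb1 (chr16:16868403-16870843, minus strand), a surrogate light chain part, ranged from 0 to 30 UMIs per cell with a median of 10 in the Listeria library, and from 0 to 33 with a median of 11 in the naive library. Summed, it gave 1910 CPM (1753 to 2077) in the Listeria and 2041 CPM (1969 to 2115) in the naive library, and Igll1, its partner, 872 and 773 CPM. The libraries overlapped over nearly the whole range of cells. Vpreb2, a near-identical copy of Vpreb1 between which reads may be split, had 229 and 261 CPM.

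Of the markers the rule did not use, Lef1, a transcription factor of early B cells, was detected in 86% of Listeria and 81.5% of naive resting cells, at 482 CPM (405 to 570) and 434 CPM (401 to 469). Akap12, a kinase-anchoring protein, was found in 80% and 79.6%, at 404 and 484 CPM. Pax5, the factor that commits cells to the B lineage, was at 281 CPM (223 to 350) in the Listeria and 267 CPM (242 to 295) in the naive library. Each of these levels differed between the libraries by less than 1.5-fold.

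A set of 103 Listeria and 264 naive cells with Dntt but few transcripts of the gate genes serves for comparison. These cells had at least 3 UMIs of Dntt, under 3 of the gate genes, and passed the same limits for Mki67, Top2a and Jchain; this rule was chosen after the data were seen. Dntt was part of it, so its level there is a description. Since the rule asked for few transcripts of the gate genes, low levels of other B-lineage genes there are no independent check. Dntt (chr19:41029275-41059525, plus strand) had 1203 CPM (1079 to 1337) in the Listeria and 1010 CPM (959 to 1062) in the naive resting early B-lineage cells, against 1225 and 1017 CPM in these cells. The levels given above for Pax5, Lef1 and Akap12 stood against 0 and 3.35 CPM, 6.66 and 16.2 CPM, and 5.33 and 8.37 CPM in the Dntt-positive cells, where Cd79a gave 7.99 and 20.7 CPM. Flt3, the receptor of lymphoid progenitors, ran the other way, with 70.3 and 46.9 CPM in resting early B-lineage cells against 280 and 260 CPM in these Dntt-positive cells. Cd34, a progenitor surface protein, had 42.2 and 12.1 CPM in resting cells against 329 and 213 CPM, and Tcf7, a T-lineage factor, 0 and 18.1 CPM against 142 and 161 CPM. Over all genes compared, 21% of 3630 were over 1.5-fold higher and 13.8% lower in resting early B-lineage than in Dntt-positive cells of the Listeria library, and 20.5% of 3487 higher and 13% lower in the naive library.

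**Figure D1:**
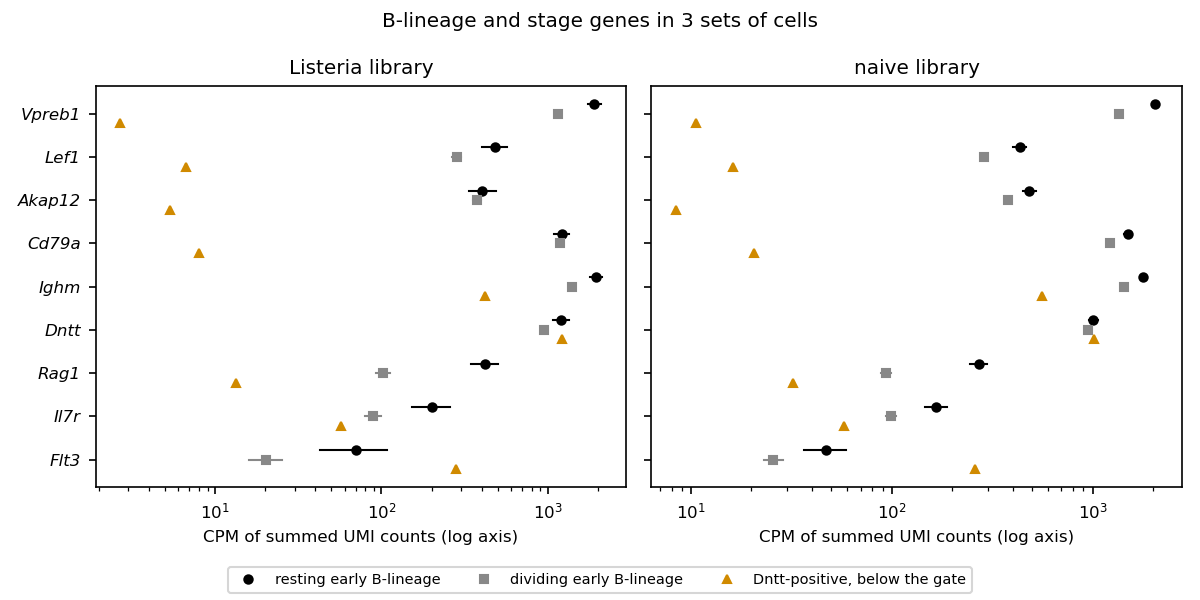
CPM of 9 genes on a log axis in resting early B-lineage cells (circles), dividing early B-lineage cells (squares) and Dntt-positive cells below the B-lineage gate (triangles), in the Listeria library (left) and the naive library (right). Lines are 95% Poisson intervals, drawn for the early B-lineage sets. Vpreb1 and Dntt were used in choosing the sets, so their levels follow from the rules. The Dntt-positive cells were chosen for few gate-gene transcripts, so low levels of other B-lineage genes in them are a description. Lef1, Akap12 and Cd79a were above the Dntt-positive cells, Rag1 was highest in the resting cells and Flt3 highest in the Dntt-positive cells.

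Signalling parts of the receptor were present. Cd79a, a signal chain of the receptor, had 1213 CPM (1089 to 1348) in the Listeria and 1498 CPM (1436 to 1561) in the naive library, a log2 ratio of -0.30 (-0.47 to -0.14), where 1 doubles the level. Its partner Cd79b had 795 and 792 CPM. Blnk, the adaptor behind the receptor, had 612 and 669 CPM, and the kinase Syk 239 and 197 CPM. Cd72, an inhibitory coreceptor, had 183 CPM (137 to 240) in the Listeria and 103 CPM (87.5 to 121) in the naive library, and the kinase Btk 106 and 66.9 CPM.

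Summed as lists, 12 small pre-B genes gave 1854 and 1435 CPM and 18 immature B genes 1245 and 1326 CPM. Of the immature B genes, 15 were detected in the Listeria and 17 in the naive library, where 1 cell held 13.2% of their UMIs. In the Dntt-positive cells the small pre-B list gave 895 and 1228 CPM and the immature B list 989 and 1094 CPM. In dividing cells they gave 716 and 741 CPM, and 942 and 979 CPM, so transcripts of these lists were not particular to the resting cells. Several defining markers were near 0. Il2ra, the CD25 chain that marks small pre-B cells, gave 0 UMIs in the Listeria library, which allows up to 10.6 CPM at 3 counts, and 1 UMI in the naive library. Cd22 and Cd2, surface proteins that come up later in the lineage, gave 2 UMIs each in the Listeria library and 1 and 5 in the naive library. Of the naive B-cell markers, Ms4a1 was at 2 and 1 UMIs, Fcer2a at 0 in both libraries, Cr2 at 1 in each, and Fcmr and Cd40 at 0 and 1. Kit, a receptor kept by pro-B cells, had 59.8 CPM (34.8 to 95.7) in the Listeria and 66.9 CPM (54.5 to 81.4) in the naive library, and Sox4, a factor of early progenitors, 749 and 730 CPM. Il7r, the receptor for the main growth signal of mouse pro-B cells, had 200 and 166 CPM. At these depths, low levels of the near-absent genes were not detectable.

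Rag1 was detected in 72% of Listeria resting cells (57.5% to 83.8%) and 59.6% of naive ones (53.4% to 65.6%). It was in 0.0727% and 0.434% of 4128 Listeria and 4149 naive cells called here cells without B-lineage transcripts. Their median depths of 7080.5 and 6651 UMIs were above those of the resting cells. They had under 3 UMIs of the gate genes, none of Dntt and under 5 of Jchain, so the name is not strict. Vpreb1 was found in 1.26% and 5.04% of them, and low levels of B-lineage genes there are a description. The Dntt-positive cells held Rag1 in 8.74% (9 of 103) and 15.2% (40 of 264). It ranged from 0 to 13 UMIs per cell with a median of 1.5 in the Listeria library, and from 0 to 12 with a median of 1 in the naive library, so single cells overlapped throughout. Summed, Rag1 had 419 CPM (347 to 501) in the Listeria and 272 CPM (246 to 300) in the naive library. The log2 ratio was 0.62 (0.32 to 0.92), just past 1.5-fold, against 0.13 in dividing cells. It was 0.54 with TMM scaling factors, below 1.5-fold. With free RNA subtracted it was 0.21, at an estimated free RNA share of 1.40% in the Listeria and 28.8% in the naive resting cells. Without the 4 Listeria and 5 naive cells that held 10 or more UMIs of neutrophil genes, MHC class II genes or Igkc, the naive share was 1.44% and the subtracted ratio 0.68.

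After thinning to 2500 UMIs, 24 of 27 Listeria and 101 of 111 naive resting cells with Rag1 also held Dntt. Both genes were detected in 48% of Listeria and 38.1% of naive resting cells, Rag1 alone in 6% and 3.77%, Dntt alone in 26% and 46.4%, and neither in 20% and 11.7%. Rag2 was sparse, with 6 UMIs in the Listeria and 14 in the naive library, or 21.1 CPM (7.74 to 45.9) and 9.37 CPM (5.12 to 15.7), and no difference was detectable at this depth.

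The joining enzymes that repair Rag cuts were mostly too low to compare. Of 17 genes for recombination and joining, 7 reached 50 CPM in either library. Rag1 and Lig4, the end-joining ligase, were over 1.5-fold higher in the Listeria library and none was lower, with a median log2 ratio of 0.20, but with TMM or median-ratio factors 0 of 7 were higher; over all 3485 genes compared, 8.32% were higher and 6.03% lower, with a median of 0.03. Lig4 had 56.3 CPM (32.2 to 91.4) in the Listeria and 36.8 CPM (27.7 to 47.9) in the naive library, and the interval of its ratio, -0.29 to 1.44, held 0. Lig4 reached 50 CPM in the Listeria library only. Xrcc6, the Ku70 end-binding protein, had 271 and 238 CPM. Xrcc4 and Xrcc5 gave 4 UMIs each in the Listeria library and 19 and 16 in the naive library.

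Transcripts of the heavy chain constant region were found in nearly every cell, which does not show that a heavy chain had been joined. Ighm (chr12:113418558-113422730, minus strand), the mu constant gene, was detected in all 50 Listeria resting cells (100%, 92.9% to 100%) and in 263 of 265 naive ones (99.2%), with 3 to 26 UMIs per cell and a median of 10 in the Listeria library and 0 to 25 with a median of 9 in the naive library. It had 1952 CPM (1793 to 2121) in the Listeria and 1792 CPM (1725 to 1861) in the naive library, a log2 ratio of 0.12 (-0.01 to 0.26). Cells without B-lineage transcripts held it in 15.3% and 49.0% of cells, at 74.2 and 170 CPM, or 28.9 and 114 CPM without the 12 Listeria and 28 naive cells that held 10 or more of its UMIs. The Dntt-positive cells had 421 and 559 CPM. Ighd, the delta constant gene of mature B cells, gave 3 and 11 UMIs.

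Which segments had been joined could not be read from these 3′ counts. The 185 Ighv genes together gave 3 UMIs in the Listeria and 26 in the naive library, and the 160 Igkv genes 1 and 9. No UMI fell on the Ighd segments, Ighj, Igkj, Iglv or Iglj in either library.

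Kappa light chain transcripts were found in shares of cells whose intervals overlapped those of cells without B-lineage transcripts. A UMI of Igkc (chr6:70726435-70726966, plus strand), the kappa constant gene, was found in 26% of Listeria resting cells (14.6% to 40.3%) and 70.9% of naive ones (65.1% to 76.3%), against 18.9% and 68.3% of the cells without B-lineage transcripts. Such shares are not read as expression, at the unequal depths given above. After thinning to 2500 UMIs they were 18% and 49.8% in resting, 5.92% and 29.3% in dividing and 11.7% and 41.3% in Dntt-positive cells. The summed level was 387 CPM (318 to 466) in the Listeria and 285 CPM (259 to 314) in the naive library, but 4 Listeria cells held 100 of 110 UMIs. In the cells without B-lineage transcripts it was 32.0 and 371 CPM, and 1 naive cell held 4273 UMIs. Without cells of 10 or more Igkc UMIs, resting cells had 35.2 and 260 CPM and cells without B-lineage transcripts 27.4 and 190 CPM. The lambda genes Iglc1 and Iglc2 gave 0 UMIs in the Listeria resting cells, which allows up to 10.6 CPM at 3 counts, and 7 and 10 in the naive ones.

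Those 4 cells were part of a small group with hardly any surrogate light chain. In the Listeria library 6 of 50 resting cells had under 3 UMIs of Vpreb1 and Igll1 together, and in the naive library 17 of 265; this split was made after the data were seen. The 6 Listeria cells held no UMI of either gene and had 3199 CPM of Igkc, 192 CPM of Dntt and 64.0 CPM of Rag1, against 39.5, 1328 and 462 CPM in the other 44. The 17 naive cells had 568 CPM of Igkc, 382 CPM of Dntt and 237 CPM of Rag1, against 266, 1053 and 274 CPM in the other 248. Of their 55 Igkc UMIs, 37 were in 2 cells, and the other 15 cells held 18. All 4 Listeria cells and both naive cells with 10 or more UMIs of Igkc were in this group. Ly6d, a surface protein of B-biased progenitors, stood at 352 CPM in the 6 Listeria cells against 316 CPM in the other 44, and at 826 CPM in the 17 naive cells against 287 CPM in the other 248. Without the group, the log2 ratio of Igkc between the libraries was -2.75 in place of 0.44 (0.12 to 0.75).

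Ighg2b, the constant gene of IgG2b, was not at background. It was detected in 16% of Listeria resting cells (7.17% to 29.1%) and 22.6% of naive ones (17.7% to 28.2%), and in 28.7% and 37.4% of the deeper dividing cells. Cells without B-lineage transcripts held it in 0.0969% and 1.76%, and the Dntt-positive cells in 0 of 103 and in 1.52% of 264. Its level was 38.7 CPM (19.3 to 69.2) in the Listeria and 71.0 CPM (58.1 to 85.8) in the naive resting cells, with at most 2 and 6 UMIs in a cell. After thinning to 2500 UMIs, 8% and 13.2% of resting cells had a UMI. Reads may be split between Ighg2b and its close relative Ighg2c, which gave 0 UMIs in both libraries.

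**Figure D2:**
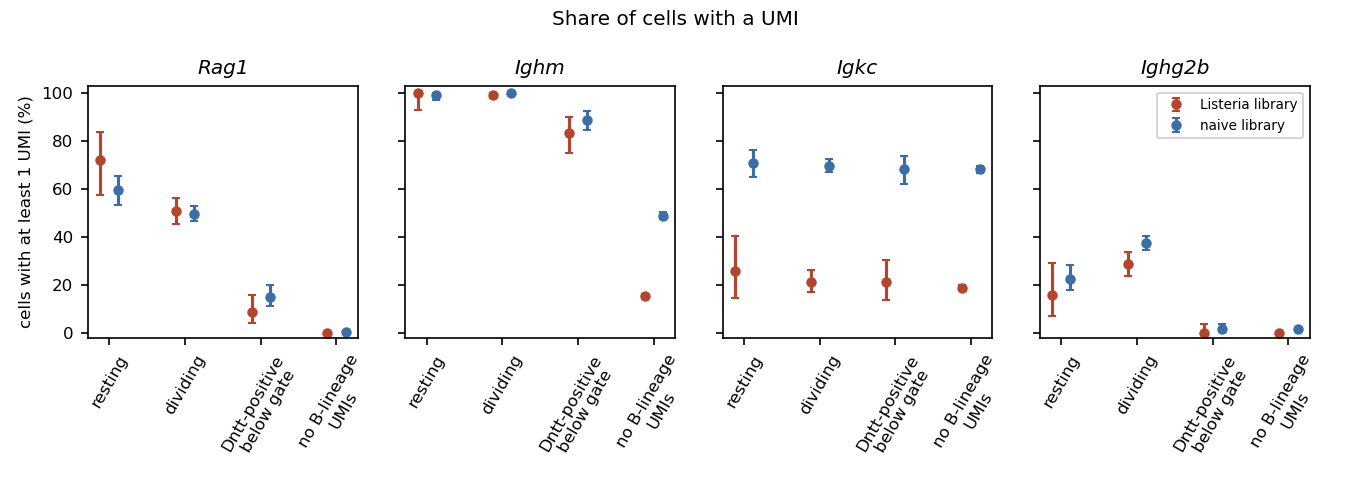
Percent of cells with at least 1 UMI of Rag1, Ighm, Igkc and Ighg2b in resting and dividing early B-lineage cells, Dntt-positive cells below the gate and cells without B-lineage transcripts, with Clopper-Pearson 95% intervals (Listeria library in red, left of the naive library in blue). Igkc lay between 18.9% and 26% in the 4 Listeria sets and between 68.2% and 70.9% in the 4 naive sets, while Rag1 was in 8.74% of Listeria and 15.2% of naive Dntt-positive cells and Ighg2b in 0 and 1.52% of them.

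Resting and dividing early B-lineage cells were set against each other within each library. The split used Mki67 and Top2a, so all values of this comparison are given as a description with no test, and the division genes follow from it. Of 3695 genes compared in the Listeria library, 21.4% were over 1.5-fold higher and 18.7% lower in resting cells, with a median log2 ratio of 0.06. Of 3500 in the naive library, 15.4% were higher and 14.2% lower, with a median of 0.09. In both libraries at once, 9.69% of 3334 genes were higher and 12.2% lower. TMM factors shifted every ratio, which decreased by 0.26 in the Listeria and by 0.23 in the naive library, and the counts became 431 higher and 1076 lower in the Listeria library and 235 and 789 in the naive library.

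Rag1 was among the 10 genes with the highest resting over dividing ratio in both libraries. In the Listeria library it had 419 CPM in resting and 102 CPM in dividing cells, a log2 ratio of 2.03 (1.73 to 2.33), and in the naive library 272 and 93.3 CPM, a ratio of 1.54 (1.38 to 1.71). Resting cells also held more Rag1 UMIs per cell than dividing cells, at a lower depth. The mean was 2.38 in resting and 1.15 in dividing Listeria cells, and 1.53 and 1.05 in naive cells. Dntt, in contrast, differed little, with log2 ratios of 0.35 in the Listeria and 0.09 in the naive library.

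When all early B-lineage cells were thinned to 2500 UMIs and split by the Mki67 and Top2a UMIs left, Rag1 was lower at each step. In the Listeria library it stood at 299 CPM in 46 cells with 0 such UMIs, 224 CPM in 29 cells with 1, 122 CPM in 56 cells with 2 or 3, and 98.1 CPM in 257 cells with 4 or more. In the naive library the levels were 213, 150, 111 and 86.2 CPM over 249, 175, 190 and 768 cells. Thinning set the steps only, and the levels came from full counts. From the first to the last step, median depth rose from 5942.5 to 10903 UMIs in the Listeria and from 5562 to 10636.5 in the naive library. At the first and second steps, Rag1 had 1.98 and 1.93 UMIs per cell in the Listeria and 1.44 and 1.36 in the naive library. At the last step it had 1.12 and 0.965, in the same order of libraries. In the Listeria library the CPM intervals of the first and second steps overlapped, and so did those of the last 2 steps. In the naive library no intervals of neighbouring steps overlapped. Kdm5b, a histone H3 lysine 4 demethylase, followed the same order in both libraries, Dntt stayed level, and Hmgb2, a DNA-bending protein, ran in the opposite order.

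**Figure D3:**
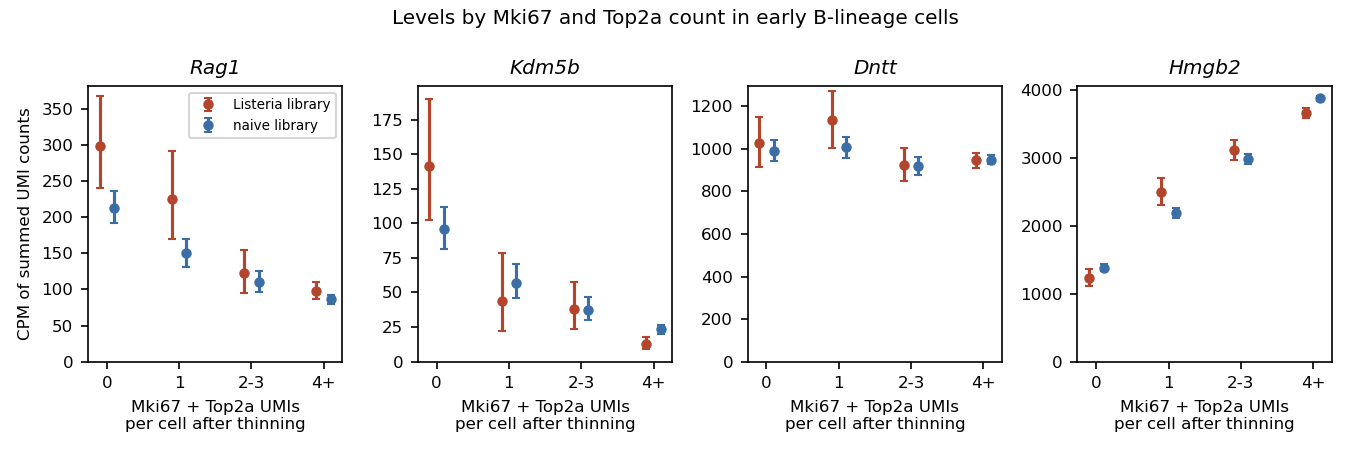
CPM of Rag1, Kdm5b, Dntt and Hmgb2 in early B-lineage cells grouped by Mki67 plus Top2a UMIs per cell after thinning to 2500 UMIs, with 95% Poisson intervals (Listeria library in red, left of the naive library in blue; axes start at 0). Rag1 went down the steps to 98.1 CPM in the Listeria and 86.2 CPM in the naive library, while Hmgb2 went up. Thinning set the groups only, and median depth rose over them.

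The other genes of the 10 highest were of several kinds. Kdm5b had log2 ratios of 3.23 (2.66 to 3.79) in the Listeria and 2.01 (1.74 to 2.28) in the naive library. Maf, a basic leucine zipper factor, had 1.84 and 1.45, and H2-Ob, a chain of H2-O, which tunes peptide loading of MHC class II, 2.15 and 1.48. Mxd4, which opposes Myc, had 1.39 and 1.66. The signalling adaptor Lax1 had 1.62 and 1.63, the selenium carrier Selenop 1.67 and 1.59, the cytoskeletal linker Dst 1.82 and 1.98, Pbxip1 2.12 and 1.47, and Tecpr1 1.97 and 1.40. Maf was also far above the Dntt-positive cells, with 366 and 335 CPM in resting cells against 24.0 and 22.3 CPM, whereas Kdm5b was lower, with 165 and 116 CPM against 262 and 236 CPM.

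The 10 lowest all belong to chromosome copying and separation. They were Top2a, which the rule used, the kinesins Kif11 and Kif4, Nusap1, Ckap2l, Cdca5, Esco2, E2f8 and the histone genes Hist1h3b and Hist1h3c. Hist1h3c, for example, had 8 UMIs in the Listeria and 87 in the naive resting cells, against 1409 and 1912 CPM in dividing cells. Of the S-phase genes compared, 20 of 20 in the Listeria and 19 of 20 in the naive library were over 1.5-fold lower in resting cells, and of the G2 and M genes 18 of 18 in each. Under TMM and median-ratio scaling 20 of 20 and 18 of 18 were lower in both libraries.

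The resting cells were not free of S-phase transcripts. After thinning to 2500 UMIs, 54% of Listeria and 65.3% of naive resting cells held at least 2 UMIs of the 22 S-phase genes. The shares were 98.2% and 97.4% in dividing cells, and 41.7% and 36.7% in the Dntt-positive cells below the gate.

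Joining genes differed in both directions. Of 7 compared in the Listeria library, Rag1, Lig4 and Xrcc6 were over 1.5-fold higher in resting cells and Hmgb1, Hmgb2 and the damage-marking histone H2afx lower. Of 6 in the naive library, Rag1 and Xrcc6 were higher and the same 3 lower. Lig4 had 56.3 CPM in resting and 18.2 CPM in dividing Listeria cells, and 36.8 and 16.8 CPM in naive cells, with log2 ratios of 1.63 (0.75 to 2.43) and 1.14 (0.68 to 1.57). Xrcc6 had ratios of 1.17 (0.81 to 1.52) and 0.84 (0.67 to 1.01). Hmgb1, which helps Rag bend DNA, was at 1769 CPM in resting and 4576 CPM in dividing Listeria cells, and at 1915 and 4507 CPM in naive cells.

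Of 12 small pre-B stage genes, 7 were compared in the Listeria library and 6 were over 1.5-fold higher in resting cells, and 3 of 5 in the naive library; with TMM factors these counts were 5 and 2. Btg1, which slows growth, had log2 ratios of 1.45 and 1.14, Bach2, a B-lineage repressor, 1.35 and 0.58, and Irf4, a factor of the light chain step, 0.63 and 0.64. Of the pro-B list, 4 of 9 were higher in the Listeria and 3 of 8 in the naive library, none lower, and with TMM factors 3 and 2 were higher. Over all genes 21.4% and 15.4% were higher, or 11.7% and 6.71% with TMM factors. Of the pro-B genes, Sox4 had ratios of 0.85 and 0.86 and Myl4, a myosin light chain, 1.55 and 0.84.

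Of the 17 signalling genes compared, 7 were higher and 1 lower in Listeria resting cells, and 5 were higher and 0 lower in naive ones; with TMM factors these became 3 and 2, and 3 and 0. Cd72 had log2 ratios of 2.05 and 1.09 and Ptprc, the CD45 phosphatase, 1.00 and 0.85, while Cd81 had -0.75 and -0.28. Among B-lineage factors, 9 of 26 were higher in the Listeria and 9 of 25 in the naive library; with TMM factors these counts were 4 and 1, beside 11.7% and 6.71% of all genes. Id3 was over 1.5-fold lower in Listeria resting cells, with ratios of -0.67 and -0.18. Pax5 had ratios of 0.50 and 0.49, Foxp1, a forkhead factor of Rag control, 0.73 and 0.46, and Tcf3, which binds E-boxes, -0.10 and 0.12.

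Genes of the interleukin 7 and survival list were higher in 7 of 14 cases in the Listeria and 5 of 12 in the naive library. Over all genes 21.4% and 15.4% were higher. With TMM factors the counts of the list were 6 and 2, beside 11.7% and 6.71% of all genes. Il7r had ratios of 1.17 and 0.75, Bcl2l11, a cell death inducer, 0.62 and 0.95, and the lymphoid D-type cyclin Ccnd3 was lower, at -1.31 and -1.14. With TMM factors Il7r was 0.51 in the naive and Bcl2l11 0.36 in the Listeria library, both below 1.5-fold. Immediate early genes, which respond to signals and to cell handling, were higher in 9 of 16 cases in the Listeria library and in 1 of 16 in the naive library. Fosb had ratios of 1.32 and 0.10 and Egr1 1.59 and 0.16. With TMM factors 4 were higher in the Listeria library and 0 in the naive one. The difference between the libraries was not tested, nor was the part of cell handling in it.

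Between the libraries, 290 of 3485 genes were over 1.5-fold higher and 210 lower in Listeria resting cells. With TMM factors the split turned, to 201 higher and 296 lower, so no direction prevailed under both. Of 3 antibody chain genes compared, Ighg2b was lower, with a ratio of -0.88 (-1.92 to 0.02) that was 0.35 when cells were thinned to 2500 UMIs and the division limit lowered to under 2, which left 48 Listeria and 293 naive resting cells. Of 17 receptor signalling genes compared, Cd72 and Btk were higher and none was lower (median log2 ratio -0.05), and of 26 B-lineage factors Bach2, Spib and Cbfa2t3 were higher and Id3 and Irf8 lower (median 0.00).

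Of 7 small pre-B stage genes compared, 4 were over 1.5-fold higher in the Listeria library and none lower, against 8.32% of all genes. The median of the list, 0.62, was the highest of the lists compared but is the ratio of Rag1 itself, given above. The 4 genes were Rag1, Bach2, Spib and Nrgn. Bach2 had 127 CPM (88.7 to 175) in the Listeria and 75.0 CPM (61.7 to 90.2) in the naive library, a log2 ratio of 0.76 (0.17 to 1.31). Spib, an Ets factor, rested on 15 UMIs in the Listeria and 36 in the naive library, and Nrgn, a calmodulin-binding protein, on 16 and 43. Both reached the limit of 50 CPM only in the Listeria library, where they were higher, so the count of the list is a description. With TMM factors Rag1 was below 1.5-fold and 3 of the 7 were past it. The list's defining markers Il2ra, Cd2 and Cd22 stayed at 2 UMIs or fewer in the Listeria library. Pro-B genes had a median of 0.20, with Flt3 and Myl4 higher of 9 compared, and immature B genes 0.02, with Cd74 lower of 7. Flt3 also reached 50 CPM in the Listeria library only, and with cells thinned and the division limit under 2 its ratio was -0.38.

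Id3, an inhibitor of E-box factors, was lower in the Listeria library. It was detected in 56% of Listeria and 75.8% of naive resting cells, with a median of 1 and 2 UMIs per cell. Its level was 229 CPM (176 to 291) in the Listeria and 443 CPM (409 to 478) in the naive library, a log2 ratio of -0.95 (-1.34 to -0.58). In dividing cells the ratio was -0.47. Irf8 had 141 and 212 CPM, a ratio of -0.59 (-1.10 to -0.11). Tcf7 gave 0 UMIs in the Listeria and 27 in the naive library, at least 1.71-fold lower when 3 counts are allowed.

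Cdkn1a (chr17:29090976-29100727, plus strand), the p21 inhibitor of cyclin-dependent kinases, differed more. It was found in 30% of Listeria and 62.6% of naive resting cells, with medians of 0 and 1 UMI and highest values of 5 and 9. The level was 87.9 CPM (56.9 to 130) in the Listeria and 254 CPM (229 to 281) in the naive library, a ratio of -1.53 (-2.18 to -0.95). It was lower in the Listeria library in the other sets too, at -0.36 in dividing and -0.82 in Dntt-positive cells. Resting over dividing, Cdkn1a had a ratio of -1.05 in the Listeria and 0.13 in the naive library. Of 8 brakes of the division cycle compared between the libraries, Cdkn1a alone passed 1.5-fold, while with TMM or median-ratio factors 2 of 8 were lower. Cdkn1b, the p27 inhibitor, had 274 and 214 CPM.

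The 12 highest ratios in the Listeria library, among genes with at least 100 UMIs, lay between 0.86 and 1.14. Rsl24d1, a ribosome assembly factor, had 127 CPM (88.7 to 175) in the Listeria and 57.6 CPM (46.1 to 71.1) in the naive library. Myl10, a myosin light chain of early B cells, had 208 and 105 CPM, a ratio of 0.98 (0.52 to 1.42), against -0.32 in dividing cells, and Myl4 had 98.5 and 52.9 CPM. Ccnd2, a D-type cyclin, had 144 and 77.7 CPM, a ratio of 0.89 that was -0.37 with cells thinned and the division limit under 2. Cbfa2t3, a corepressor, had 151 and 81.7 CPM. The others were Jpt1, Hcfc1, Gem, Dkc1, Mapkap1, Txndc9 and Ssu72.

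The 12 lowest held neutrophil, MHC class II and histone genes. S100a8, S100a9, Ngp and Camp, the granule and calcium-binding proteins of neutrophils, had ratios from -4.90 to -6.33, and 1 naive cell held 3421 of the naive cells' 3523 UMIs of these genes. Without the 4 Listeria and 5 naive cells rich in neutrophil, MHC class II or Igkc transcripts, S100a9 had a ratio of 0.32 and Camp 0.28. Cd74, the MHC class II chaperone, had -1.45 (-2.39 to -0.64), and 3 naive cells held 213 of 276 UMIs of Cd74, H2-Aa and H2-Eb1. With cells thinned and the division limit under 2, the ratio of Cd74 was 2.24. The histone genes Hist1h2ae, Hist1h1b and Hist1h2ap had -1.99, -1.94 and -1.36. The others were Cdkn1a, Mxd1, which opposes Myc, at -1.42, Fbrsl1 at -1.38 and Frat2 at -1.36.

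**Figure D4:**
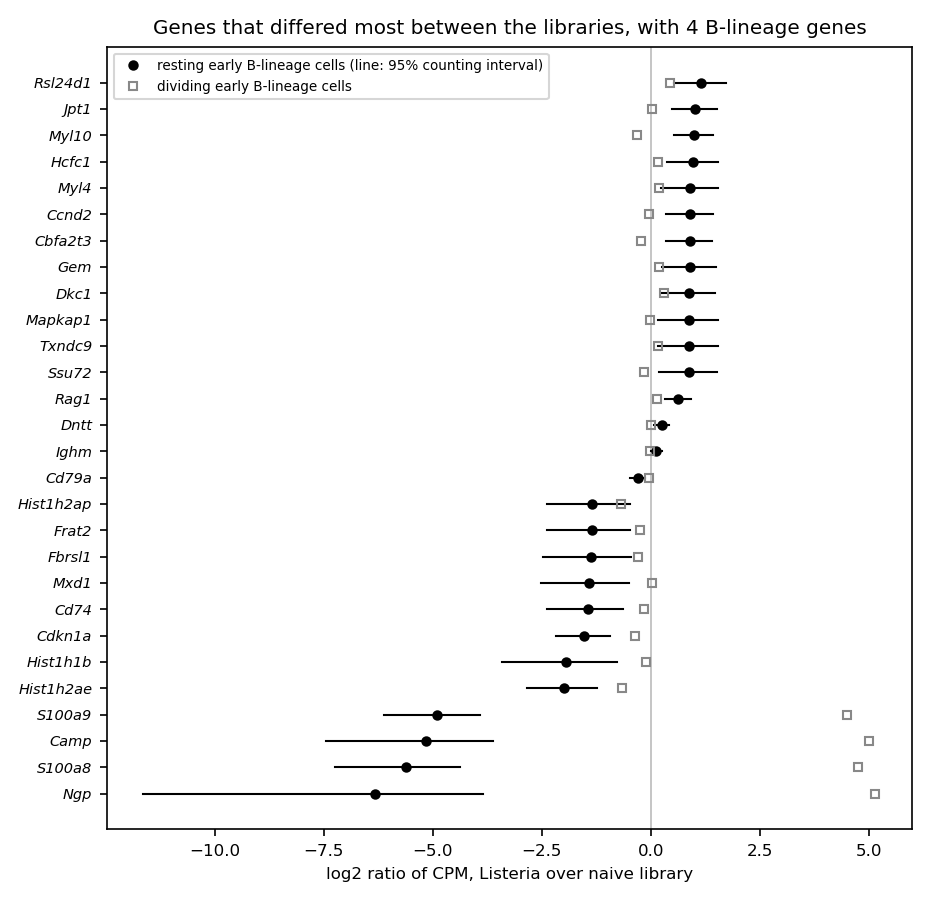
Log2 ratio of CPM, Listeria over naive library, for the 12 highest and 12 lowest genes in resting early B-lineage cells with 4 B-lineage genes between them. Circles with lines are resting cells with 95% counting intervals, and open squares are dividing cells. The neutrophil genes lay at -4.90 or lower in resting cells and at 4.50 or higher in dividing cells, and 1 naive resting cell held most of their UMIs in resting cells. On the dividing side, 1 Listeria cell held 56% of the UMIs of the myeloid list, which gave 1330 CPM, or 95.1 CPM without the 4 cells of 10 or more such UMIs.

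Stress lists are set beside all genes, of which 8.32% were higher and 6.03% lower, with a median of 0.03. Of 16 immediate early genes 2 were higher and 0 lower (median 0.25), of 8 heat shock genes 2 and 0 (0.33), and of 6 amino acid stress genes 1 and 0 (-0.03). The genes past 1.5-fold were Fosb, Egr1, Hsph1, Dnajb1 and Phgdh, all higher. With TMM factors only Egr1 of these 5 remained past it, and 1 amino acid stress gene was lower. Of 14 interleukin 7 and survival genes, Ccnd2 and Socs2 were higher. Jun, an immediate early factor, had 2174 CPM in the Listeria and 1772 CPM in the naive library, and its relative Jund 2269 and 2830 CPM. Ifi27l2a, an interferon-induced gene, had 141 and 244 CPM, a ratio of -0.80 (-1.31 to -0.32), against -0.50 in dividing cells.

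Markers of other cells were summed by list. The HSC list of 8 genes summed to 130 CPM in the Listeria and 137 CPM in the naive resting cells, with Procr at 0 in the Listeria library. Megakaryocyte genes summed to 14.1 and 14.7 CPM, red cell genes to 35.2 and 13.4 CPM, and T and NK genes to 28.1 and 76.3 CPM. Gata1, Cd3e, Cd4, Csf1r and Siglech, which define red cell, T, macrophage and plasmacytoid dendritic cells, were at 0 in both libraries. The myeloid list gave 264 CPM in the Listeria and 2618 CPM in the naive library, and 1 naive cell held 90.9% of the naive UMIs. The dendritic list gave 250 and 395 CPM. The plasma cell list gave 795 and 880 CPM, though Jchain was limited by the rule, against 229 and 243 CPM in the Dntt-positive cells; their part in the results was not tested.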

How the data were processed

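Droplet-based 3′ single-cell RNA libraries were compared, 1 per group. The submitters' processing notes name Cell Ranger 3.0.2 and the mm10 build. Each deposited matrix holds whole-number UMI counts for 31053 genes, which the authors did not normalize. The deposited barcode list holds 6794880 barcodes, although the labels' protocols name the v2 kit; depth totals 43895966 UMIs in the Listeria and 64619150 in the naive library. Positions came from GENCODE vM21, in which 31011 identifiers matched.

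Counts were summed over cells and given as CPM with exact Poisson intervals; ratios have exact binomial intervals and shares Clopper-Pearson intervals, at 95% (Python 3.11.15, SciPy 1.17.1). Genes with at least 50 CPM in either set were compared, and a difference was counted past 1.5-fold. The ratio step was tested on simulated data. TMM factors (edgeR 4.0.16) and median-ratio factors (DESeq2 1.42.0) were alternatives. No doublet caller was used, so doublets remain. Of kept barcodes, 14 occurred in both libraries, none of them resting early B-lineage cells.

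The rule, the members and all gene lists were chosen with earlier results of these data known. Named genes were all members of 7 B-lineage lists, up to 4 of each other list by CPM, the 12 highest and lowest ratios between libraries and the 10 highest and lowest between resting and dividing cells, each with at least 100 UMIs, without mitochondrial, ribosomal, unnamed, sex-linked and antibody segment genes. Il7r, Bcl2l11, Ccnd3, Egr1, Socs2, Hsph1, Dnajb1 and Phgdh were named after their values were seen where the rule did not give them.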

Additional observations from a re-analysis of the deposited data

Results flagged for a closer look

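Genes whose resting over dividing log2 ratio had opposite signs in the libraries, the smallest of them -0.343, are given here with the Listeria value first. The difference between the libraries was not tested, and with 1 library per group it cannot be. The neutrophil genes were Ngp at -5.21 and 6.27, S100a8 at -4.59 and 5.76, S100a9 at -4.07 and 5.33, and Camp at -3.65 and 6.51; 1 naive resting cell held 3421 of 3523 such UMIs among naive resting cells. In Listeria dividing cells, 1 cell held 2827 of the 5050 UMIs of the myeloid list, which gave 1330 CPM, or 95.1 CPM without the 4 cells of 10 or more such UMIs. Mxd1, which opposes Myc, had -0.827 and 0.629, and Frat2, a regulator of Wnt signalling, -0.459 and 0.654. Ddit3, a stress-response factor, had -0.579 and 0.363, Eif4ebp1, a brake on translation, -0.688 and 0.345, and Ccng2, a cyclin linked to cell cycle arrest, -0.343 and 0.4. Ssu72, an RNA polymerase II phosphatase, had 0.45 and -0.568.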

How the results depend on the processing

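The share of resting cells, among kept or among early B-lineage cells, was lower for the Listeria library under every alternative run. With at least 4000 UMIs per barcode, resting cells were 0.763% of kept Listeria and 3.26% of kept naive cells, and 9.56% and 14.7% of early B-lineage cells. With Mki67 and Top2a at 0, these were 0.682% and 2.27%, and 8.51% and 10.5%. With cells thinned to 2500 UMIs and the division limit lowered to under 2, 20.8% and 29.0% of early B-lineage cells were resting. This setting made several changes at once, since the B-lineage gate of 10 UMIs was applied to the thinned counts and was stricter for deep cells. It gave 48 Listeria and 293 naive resting cells, beside 183 and 716 dividing cells. With a gate of 20 UMIs, 3.67% of kept naive cells were resting. Genes past 1.5-fold between libraries, 290 higher and 210 lower, became 465 and 394 with Mki67 and Top2a at 0. They were 921 and 689 at 20 CPM, 2376 and 1533 at 1 UMI in each library, 743 and 577 at a looser fold limit, and 43 and 55 at 2-fold. With free RNA subtracted 458 were lower, at an estimated naive share of 28.8%. Without the cells rich in transcripts of another lineage, that share was 1.44% and 244 were lower.

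The log2 ratio of Rag1 between libraries, 0.62, was 0.21 with free RNA subtracted, and 0.68 when cells rich in transcripts of another lineage were left out as well. That of Ighm, 0.12, was -0.060 without cells low in surrogate light chain, -0.030 without cells rich in transcripts of another lineage, 0.45 with free RNA subtracted and -0.019 with both changes. That of Igkc, 0.44, was 0.030 at 5% mitochondrial UMIs, 1.19 and -0.72 with gates of 5 and 20 UMIs, 1.06 with Mki67 and Top2a at 0, -2.75 without the surrogate-low cells and -2.83 without cells of another lineage; subtracting free RNA gave no value. Resting over dividing, Rag1 was 1.47 in the Listeria and 1.36 in the naive library with thinning and the lower division limit. In the naive library it was 1.31 with TMM or median-ratio factors and 1.84 with free RNA subtracted. With cells of another lineage left out too, the subtracted naive value was 1.46. With cells thinned and the division limit under 2, the ratio between libraries reversed for Cd74 (2.24), Ccnd2 (-0.37), S100a9 (0.60), Camp (0.88), Ighg2b (0.35), Egr1 (-0.40) and Flt3 (-0.38). With Mki67 and Top2a at 0, Cd74 was 0.45. Without the 5% deepest cells S100a9 was 0.16 and Camp 0.81, and without cells of another lineage 0.32 and 0.28. The cause was not tested, except that 1 naive cell held the neutrophil transcripts. Of 1520 recomputed values for single genes, 1335 stayed inside the interval first found, 173 left it without reversing a difference past 1.5-fold, and 12 reversed one. The settings that left out surrogate-low or other-lineage cells were chosen after seeing the data.

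No paired analysis was possible because each group is 1 library with no replicate number, and leaving out a replicate was not possible. Depth limits the Listeria values most, since 50 cells with 284318 UMIs leave genes under about 50 CPM on few counts. Intervals cover counting error only and say nothing of variation between mice. Free RNA and doublets remain in the counts.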
